A study of Arabidopsis thaliana with 6 samples.

Results

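SACL1, SAMDC1, SAMDC2 and PMEAMT are 4 genes of Arabidopsis thaliana whose transcripts carry a conserved upstream open reading frame (uORF), a short reading frame ahead of the protein-coding one, that responds to thermospermine, polyamines or phosphocholine. They were taken by locus (AT5G09460, AT3G02470, AT5G15950 and AT1G48600), and each has 1 probe set that the array annotation assigns to it alone, so 4 of the 22810 probe sets of the ATH1 array are described, from among 13350 genes with a probe set of their own. Total RNA from leaves was hybridised to 6 arrays, 3 for each of 2 genotypes. The control group, pad4, is stock N3806 in Col, which carries the pad4-1 mutation of PAD4 (AT3G52430), a lipase-like protein of salicylic acid signalling in immunity. The other group, pad4 est1b, carries pad4-1 and est1b-1, the insertion SALK_073354 in EST1B, in Col-0. Both groups therefore lack PAD4, and a plant with functional PAD4 is not part of the comparison. Plants grew on soil at 22 °C under 1 description for all samples, but pad4 replicates 2 and 3 are labelled stage 3.90 and leaves, whereas pad4 replicate 1 and all 3 pad4 est1b samples are labelled stage 5.10 and developed rosette leaves. The labels do not say whether replicates were separate plants or pools.

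EST1B acts in nonsense-mediated mRNA decay (NMD), which degrades transcripts on which a ribosome terminates far ahead of the usual stop codon. The stop codon of a uORF can be read in that way. SAMDC1 and SAMDC2 encode S-adenosylmethionine decarboxylase, which supplies the aminopropyl groups of spermidine, spermine and thermospermine, and their uORF lowers translation of the enzyme when polyamines are plentiful. SACL1 encodes a bHLH protein of the SAC51 family, in which thermospermine relieves the block that the uORF sets on translation; the family is known from growth of the vascular tissue. PMEAMT, also called NMT2, encodes an N-methyltransferase of phosphocholine synthesis, whose relative NMT1 is repressed in translation by phosphocholine through its uORF.

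The deposited values are probe set signals on a linear scale, scaled per array. Total signal ran from 3405664 to 3894818 units per array and the median signal from 21.2 to 31.6. The leaf genes RCA and LHCB4.2, for rubisco activase and a light-harvesting protein, lay between 4990 and 9805 units on every array, while the root gene PYK10 was at most 12.4 and the guard cell gene FAMA lay between 29.2 and 100.6; only these 4 of 28 listed markers have a probe set that the annotation assigns to them alone, so markers of xylem, phloem, flower and seed were not analysed here. The genotypes were not checked, since the annotation used assigns no probe set to the mutated genes alone. The arrays differed most by replicate number: component 1 of a principal component analysis took up 64.9% of the variance, with pad4 replicate 1 at -44.2 and pad4 replicate 3 at 67.2. Pad4 replicate 3 held the lowest of the 6 signals for 39.2% of the 12804 probe sets kept for testing (mean signal of at least 20). It also held the highest for 21.8%, and both shares were the largest of any array. Its mean log2 ratio of 3' to 5' control probe sets for actin and GAPDH was the highest, 2.00 against 1.21 in pad4 replicate 1. Another GAPDH control pair did not show this, with -0.03 in pad4 replicate 3 and the highest value, 0.08, in pad4 replicate 2.

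None of the 4 genes was called between the genotypes. SACL1 was the one gene whose groups did not overlap on the 6 arrays, with all 3 pad4 est1b signals above all 3 pad4 signals. This held for 6.41% of all probe sets tested. The mean of SACL1 was 2.89 times as high. SAMDC1 differed by less than its replicate spread, SAMDC2 was slightly higher in each same-numbered comparison, and PMEAMT was lower in the mean but with overlapping groups. Limma, fitted over all 12804 probe sets with Benjamini-Hochberg adjustment, called 5 higher in pad4 est1b (0.0391%) and 0 lower (0%; 148 probe sets, 1.16%, were lower at an unadjusted p under 0.05). The 4 genes had a median log2 fold change of 0.15, beside 0.03 over all probe sets tested, with 2 positive and 2 negative values. In whole-leaf RNA, fewer cells of a type and less RNA per cell cannot be told apart.

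SACL1, the bHLH gene, gave 54.2, 58.9 and 26.1 signal units in pad4 replicates 1, 2 and 3. In pad4 est1b replicates 1, 2 and 3 it gave 159, 72.2 and 170.5. Replicates 1 and 3 of the double mutant were high, and its replicate 2 lay close above pad4, 13.3 units over the highest pad4 array. Groups that do not overlap, with pad4 est1b higher, were found for 6.41% of all probe sets tested. The means were 46.4 ± 17.7 in pad4 and 133.9 ± 53.7 in pad4 est1b (SD, n = 3). The log2 fold change, on the log2(signal + 10) scale as all fold changes here, was 1.32 ± 0.40 (SE, 95% interval 0.41 to 2.23), or 2.50-fold. By limma the unadjusted p was 0.0099 and the adjusted p was 0.81. At the looser limit of an unadjusted p under 0.05, 3.29% of all probe sets tested were higher in pad4 est1b. SACL1 ranked 63rd of the probe sets by signed log2 fold change, highest first. By limma p-value, which counts both directions, it ranked 156th, so the 2 ranks are not comparable.

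The same-numbered comparisons of SACL1 ranged widely, with log2 differences of 1.40, 0.25 and 2.32 for numbers 1, 2 and 3. At number 3 the lowest of the 6 arrays was set against the highest: pad4 replicate 3 was 0.83 below pad4 replicate 1 on the log2 scale, where the median probe set was 0.26 below, and pad4 est1b replicate 3 was 0.10 above its replicate 1. Without pad4 replicate 3 the log2 fold change of SACL1 was 1.03, and without both number 3 arrays it was 0.83 (adjusted p = 0.60 by limma). Among the 4 samples labelled stage 5.10, pad4 replicate 1 lay below all 3 double mutant arrays, a log2 fold change of 1.08 with adjusted p = 0.98 by limma, where the lone pad4 array is assumed to vary like the other group.

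**Figure D1:**
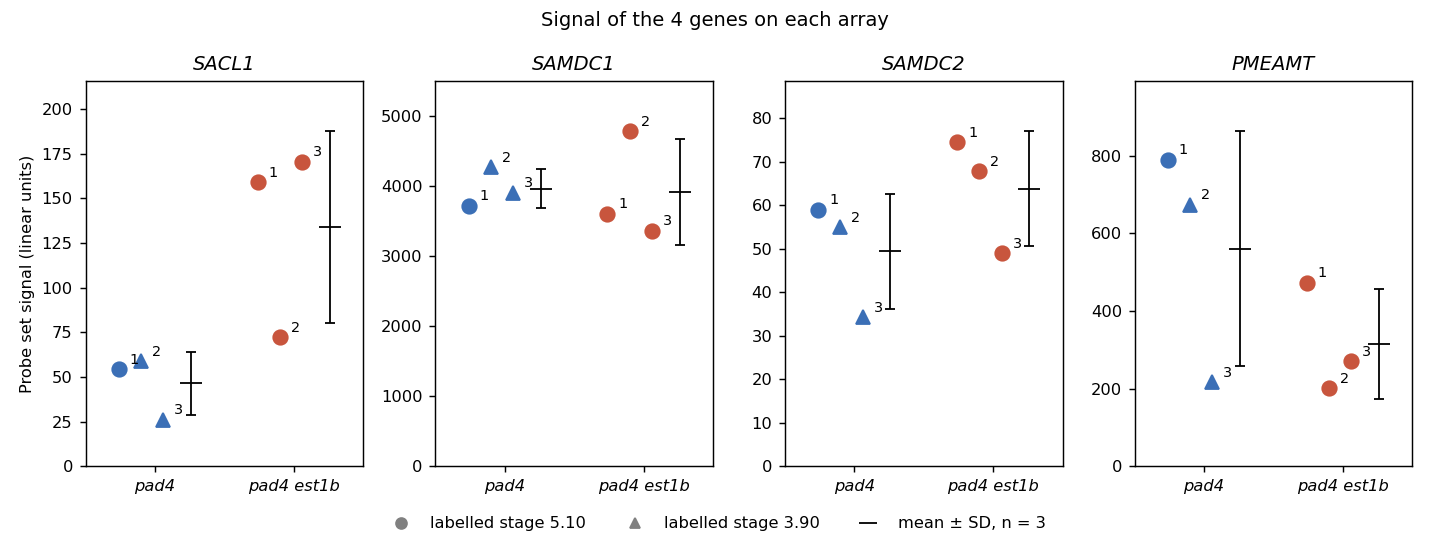
Probe set signal (linear units) of SACL1, SAMDC1, SAMDC2 and PMEAMT on each of the 6 arrays, numbered by replicate, with circles for samples labelled stage 5.10, triangles for stage 3.90, and bars for the mean ± SD (n = 3). SACL1 is the 1 gene whose groups are apart, with pad4 est1b higher, as for 6.41% of all probe sets tested. Pad4 replicate 3 lies low for SACL1, SAMDC2 and PMEAMT but not for SAMDC1.

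SAMDC1, one of the decarboxylase genes, held nearly the same signal in both genotypes. It gave 3721, 4273 and 3909 units in pad4 replicates 1, 2 and 3, and 3610, 4788 and 3365 in pad4 est1b replicates 1, 2 and 3. Pad4 est1b had both the highest and the lowest of the 6 arrays, so the pad4 arrays lay inside its range. The means were 3968 ± 281 and 3921 ± 761 (SD, n = 3). The log2 fold change was -0.03 ± 0.25 (SE, adjusted p = 1.00 by limma), and its 95% interval of -0.61 to 0.55 leaves room for changes from 0.65-fold to 1.46-fold. Quantile normalization turned its sign, as did 6 other alternatives. SAMDC1 varied least among the 4 genes, with a coefficient of variation of 13.0% over the 6 arrays, against 25.1% for SAMDC2, 57.2% for PMEAMT and 66.3% for SACL1. Unlike in the other genes, pad4 replicate 3 was neither the lowest nor the second lowest array.

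SAMDC2, its paralog, gave 58.9, 54.9 and 34.3 units in pad4 replicates 1, 2 and 3. In pad4 est1b the values were 74.5, 67.8 and 48.9. Replicate 3 was the lowest array in both genotypes, and the lowest double mutant array lay below the 2 higher pad4 arrays, so the groups overlapped. Without both number 3 arrays they were apart, as for 17.8% of all probe sets higher in the double mutant on the same arrays. The log2 differences of same-numbered arrays were 0.29, 0.26 and 0.41, close to each other and all positive; 19.9% of all probe sets tested were higher in pad4 est1b at every number. The means were 49.3 ± 13.2 and 63.7 ± 13.2 (SD, n = 3), and the log2 fold change was 0.32 ± 0.29 (SE, 95% interval -0.34 to 0.98, adjusted p = 1.00 by limma). With pad4 replicate 1 as the only control, among samples labelled stage 5.10, the value was 0.08, and without pad4 replicate 3 it was 0.12.

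The paralogs were also compared in their change within arrays, which removes any shift shared by both probe sets. The log2 difference of SAMDC2 from SAMDC1 was larger by 0.35 in pad4 est1b than in pad4. An exact two-sided permutation test over 3 against 3 arrays, which cannot go below 0.1, gave p = 0.3. The test could not have passed a threshold of 0.05 at this size, so it does not show whether the paralogs responded alike. The third decarboxylase gene, SAMDC3, had a log2 fold change of 0.14 ± 0.28 (SE), between those of its relatives.

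PMEAMT, the methyltransferase gene, gave 790, 673 and 217 units in pad4 replicates 1, 2 and 3. In pad4 est1b replicates 1, 2 and 3 it gave 473, 201 and 271. The first 2 pad4 arrays were high, and pad4 replicate 3 lay among the double mutant arrays, below 2 of them. The means were 560 ± 303 and 315 ± 141 (SD, n = 3). The log2 fold change was -0.70 ± 0.52 (SE, 95% interval -1.90 to 0.49), with an unadjusted p of 0.21 and an adjusted p of 1.00 by limma. Pad4 replicate 3 was 1.82 below pad4 replicate 1 on the log2 scale, a larger distance than that between the genotypes.

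What PMEAMT showed depended on that array and on the stage labels. The log2 differences at numbers 1, 2 and 3 were -0.73, -1.69 and 0.31. Without pad4 replicate 3 the groups were apart, as for 12.4% of all probe sets lower in the double mutant on the same 5 arrays. The log2 fold change was then -1.27 (unadjusted p = 0.0078, adjusted p = 0.47 by limma). In that fit 908 of the 12804 probe sets had an unadjusted p under 0.05, beside 569 in the main fit. Leaving out pad4 replicate 1 gave -0.36, leaving out pad4 replicate 2 gave -0.48 and leaving out pad4 est1b replicate 2 gave -0.44. With pad4 replicate 1, the highest array, as the only control among samples labelled stage 5.10, the value was -1.39. Stage as a covariate gave the same value. Both arrays labelled 3.90 are pad4, so that fit also compares pad4 replicate 1 alone with the double mutant. Pad4 replicate 3 is also the array with the highest mean control ratio of 3' to 5' signal for actin and GAPDH, though not for another GAPDH pair. With the mean ratio as a covariate the value was -0.62 ± 0.26 (SE, unadjusted p = 0.040, adjusted p = 0.46 by limma). This covariate lowered p for many probe sets, with 1276 of the 12804 under 0.05 unadjusted.

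**Figure D2:**
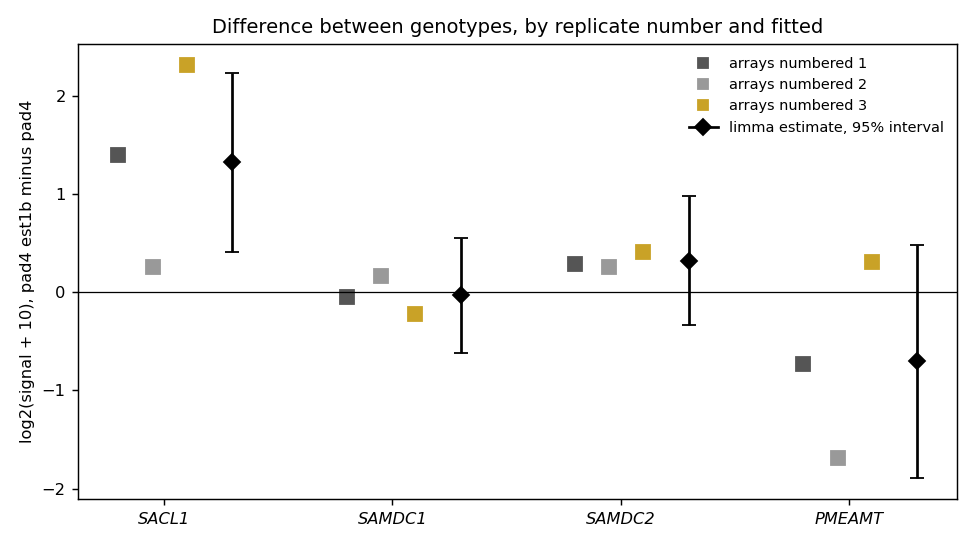
Difference in log2(signal + 10), pad4 est1b minus pad4, for arrays of the same replicate number (squares) and as the limma estimate with its 95% interval (diamonds). SACL1 and SAMDC2 are above 0 at all 3 numbers, PMEAMT runs from -1.69 at number 2 to 0.31 at number 3, and only the interval of SACL1 leaves out 0.

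The 4 genes did not share a profile over the arrays. Over the 6 arrays Pearson's r was 0.59 between SACL1 and SAMDC2, 0.35 between SAMDC2 and PMEAMT, 0.19 between the SAMDC paralogs, 0.04 between SACL1 and PMEAMT, -0.21 between SAMDC1 and PMEAMT and -0.46 between SACL1 and SAMDC1. These values describe 6 points that share the genotype and replicate differences of the arrays. Among the kept probe sets with 1 gene and an SD over the arrays of at least 0.2, the ones most like SACL1 were AT2G32640, AT4G33490 and TRZ3 (r from 0.991 to 0.993). AT2G32640 went from 53.8, 50.3 and 26.3 units in pad4 to 108.4, 65.4 and 128.9 in pad4 est1b, with the same low replicate 2 of the double mutant. With so few arrays high values are common: 97 probe sets had an r over 0.9 with SACL1 and 403 with SAMDC2. The profiles most like SAMDC2 were those of AT4G02340, AT1G63660 and AT1G31850 (0.991 to 0.997), and those most like PMEAMT were AT3G47080, AT1G61240 and AT5G61330 (0.988 to 0.996). For SAMDC1 they were AT3G49220, AT3G43230 and AT1G23840 (0.954 to 0.970), with 18 probe sets over 0.9.

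The wider pathways could be read only in part. Of 87 listed genes 23 have a probe set that the annotation assigns to them alone, and 19 of these were bright enough to test. By limma 2 of the 19 were called higher, beside 0.0391% of all probe sets, and 0 lower, and 5 had an unadjusted p under 0.05, beside 4.44% of all. The 5 were SACL1 and 4 of the further genes listed for conserved uORFs, among them both called genes. None of the 5 was listed for polyamine or phosphocholine metabolism. All 5 were chosen with results of these arrays known, so neither count supports anything about the lists. Of the SAC51 family, SACL2 was at 2.20 to 9.55 units on all arrays, under the limit for testing, and SAC51 and SACL3 have no probe set assigned to them alone. LHW, a bHLH regulator of vascular growth known to bind members of the SAC51 family, gave 64.1, 63.8 and 19.8 units in pad4 and 84.9, 59.2 and 76.6 in pad4 est1b (log2 fold change 0.60 ± 0.39, SE), a low value in pad4 replicate 3 as for SACL1.

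Of 14 listed genes of polyamine synthesis, only the 3 decarboxylase genes could be tested, and 0 were called. Their median log2 fold change was 0.14. No listed S-adenosylmethionine synthetase and no listed gene of phosphocholine release could be read. Among genes that remove or conjugate polyamines, the copper amine oxidase CuAO3 gave 199, 161 and 96.8 units in pad4 and 251, 235 and 189 in pad4 est1b (log2 fold change 0.58 ± 0.31, SE). Its groups overlapped, and its relative CuAO1 had 0.06. The hydroxycinnamoyl conjugation genes SCT and SDT stayed under 10 units on all arrays. ARD4, named as an acireductone dioxygenase of methionine salvage, had -0.12.

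In phosphocholine and phosphatidylcholine synthesis 6 of 17 listed genes could be tested and 0 were called, with 2 positive and 4 negative values and a median of -0.18. NMT3, a methyltransferase gene related to PMEAMT, gave 659, 682 and 262 units in pad4 and 443, 309 and 525 in pad4 est1b. It shared the 2 high pad4 arrays and the low replicate 3, but its double mutant replicate 3 was high, and its log2 fold change was -0.24 ± 0.41 (SE). CCT1 and CCT2, for the cytidylyl transfer that activates phosphocholine, had -0.12 and 0.26. AAPT2, an aminoalcohol phosphotransferase of the final step, had -0.28, and CK2, listed as a choline kinase, had 0.36. Over all lists, pad4 replicate 3 held the lowest signal for 13 of the 19 tested genes, beside 39.2% of all probe sets tested. The 19 include genes chosen with their values on these arrays known, so the count shows no trait of these pathways.

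Of 12 further genes listed for conserved uORFs, 5 could be tested, and their values spread from near 0 to well above those of SACL1. AT3G53400 (log2 fold change 2.75) and AT5G03190, also named CPUORF47 (2.19), were the 2 called, each with adjusted p = 0.0495 by limma. Both calls sit at the threshold: AT3G53400 was not called in 12 of 19 alternatives and AT5G03190 in 13, among them quantile normalization, stage as a covariate and each single array left out except pad4 replicate 3, while their log2 fold changes stayed between 2.39 and 3.21 and between 1.59 and 2.75. AT1G36730, an eIF5 gene, had 2.35 and the kinase gene AT5G45430 had 2.23, with adjusted p of 0.46 and 0.39 by limma. For bZIP53, a leucine zipper transcription factor, the value was -0.09. The lists were put together from general knowledge, with results of these arrays known for 4 of these 5 genes, and the uORFs were not checked against sequence. The median of the 5 was 2.23, which was not tested against the 4 genes described here.

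**Figure D3:**
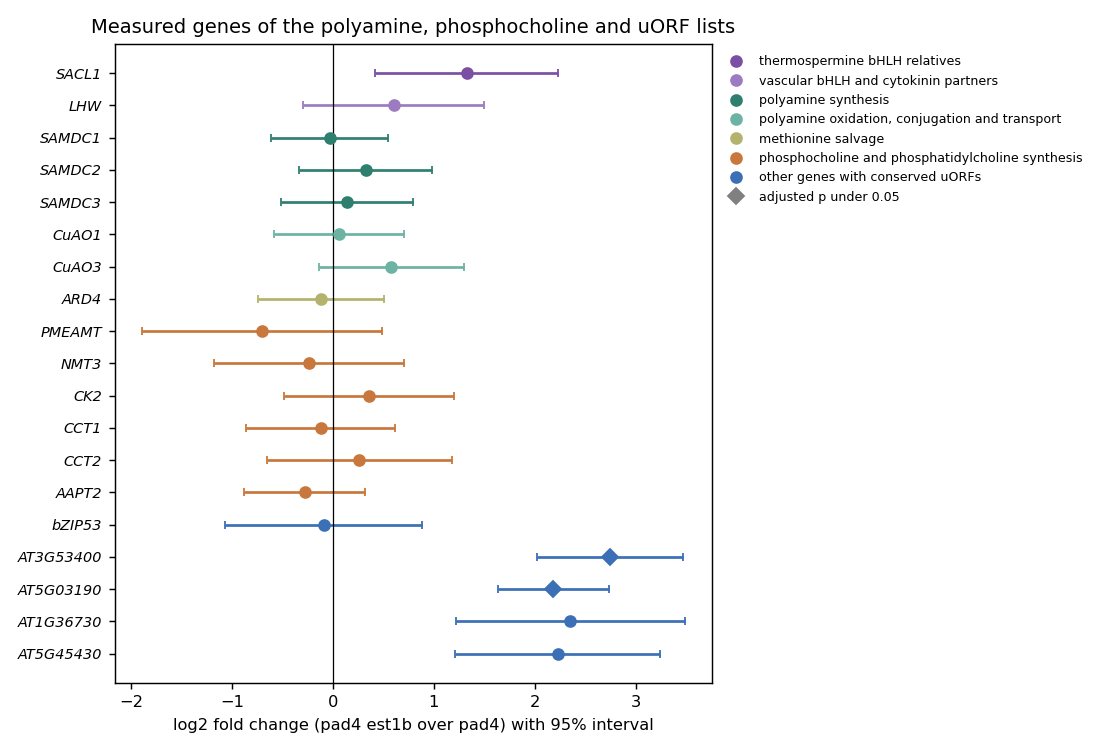
Log2 fold change (pad4 est1b over pad4) with its 95% interval for the 19 list genes bright enough to test, coloured by list, with diamonds for an adjusted p under 0.05. AT3G53400 and AT5G03190 are the 2 called genes, both at an adjusted p of 0.0495 and not called in 12 and 13 of 19 alternatives, and the polyamine and phosphocholine genes lie between -0.70 and 0.58.

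Under 19 alternatives 0 of the 4 genes were called at any setting. The lowest adjusted p was 0.12 by limma, for SACL1 with the replicate number as a block. Over all probe sets, the number called ran from 0 to 81 across these alternatives. Settings with 0 calls, such as those without the offset or with stage as a covariate, show nothing particular to the 4 genes. The log2 fold change of SACL1 stayed between 0.83 and 1.69, that of SAMDC2 between 0.08 and 0.48 and that of PMEAMT between -1.39 and -0.36. The value of SAMDC1 lay on either side of 0, from -0.18 to 0.07.

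**Figure D4:**
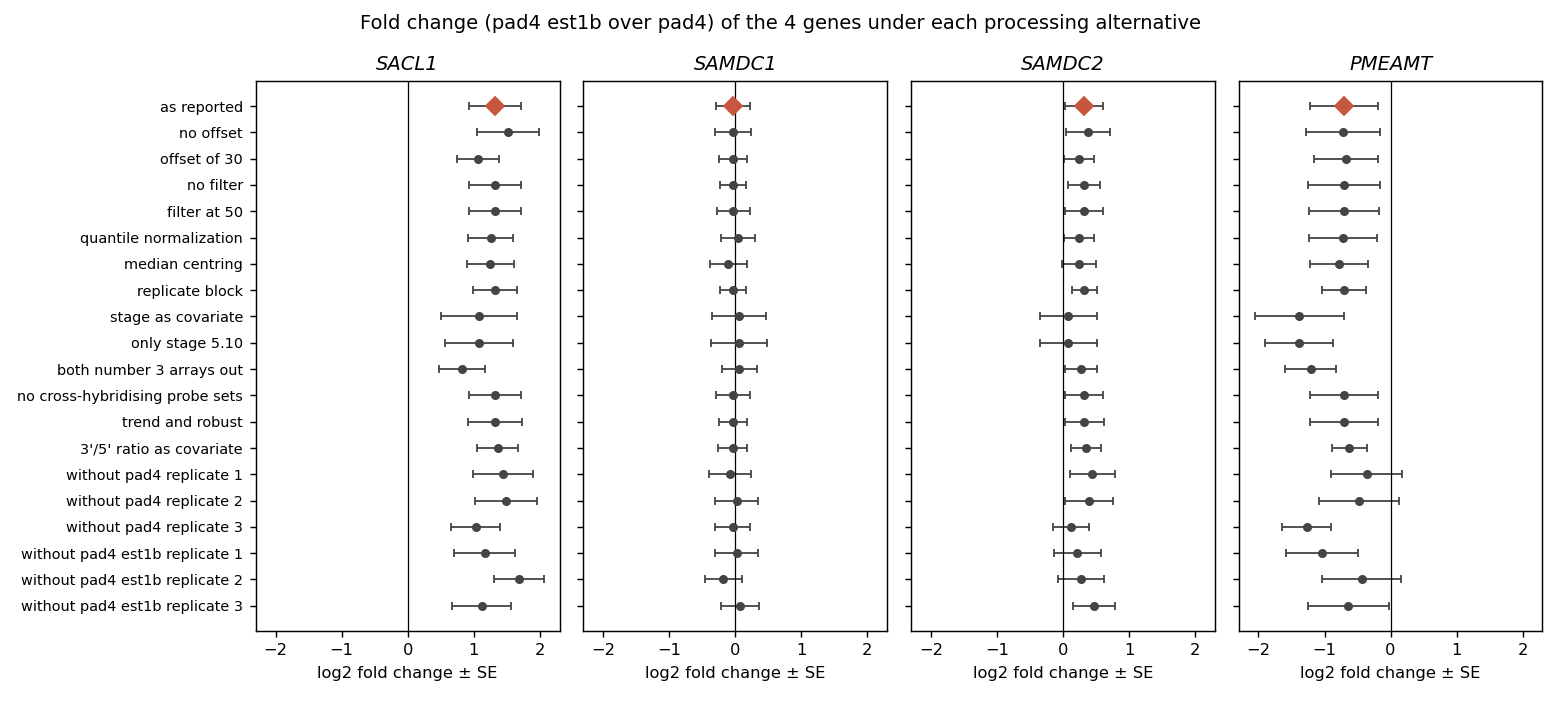
Log2 fold change ± SE of the 4 genes as reported (diamonds) and under each of 19 processing alternatives (circles). SACL1 and SAMDC2 stay above 0 and PMEAMT below 0 throughout. Settings that change only the filter, the replicate block, the other probe sets or the empirical Bayes options keep the value as reported and could not turn it. PMEAMT is farthest from 0 at -1.39 in the stage 5.10 samples alone and with stage as a covariate, which both leave pad4 replicate 1 as the only control.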

How the data were processed

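The series matrix holds 1 column of Affymetrix ATH1 signals per sample. The deposited values are probe set intensities on a linear scale; the tools MAS5 and GCOS come from the submitters' processing notes, RNA was purified with a Qiagen kit and labelled by 3' IVT per the labels' protocols, with software versions and settings not given in the sources used here. Each array has a 2%-trimmed mean of 100. Groups and replicate numbers come from the sample titles. Genes were named from the platform annotation (13513 of 22810 probe sets have 1 gene, 503 several, 64 are controls and 8730 have none listed), with TAIR10.1 names for 13436; no coordinates are printed, since the build behind it is not given. The reference tables used hold no sequences, so none are shown.

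An offset of 10 was added before log2, controls and probe sets with a mean under 20 were left out, and limma 3.58.1 (lmFit, eBayes, R 4.3.3, two-sided, no covariates) was fitted over the 12804 kept, with Benjamini-Hochberg adjustment and a threshold of 0.05. The offset understates changes of dim genes. The 3 arrays per group limit the precision, and p-values reflect only how these samples spread, which may be technical. The paralogs were compared by an exact permutation test in Python 3.11.15 (scipy 1.17.1, pandas 2.3.3, numpy 2.4.6, figures with matplotlib 3.10.9). The fit was tested on simulated data with independent noise for each array and probe set. That setting lacks the variation that probe sets share on these arrays, so it does not show how reliable the calls are here. Genes named are the 4 members, up to 6 measured genes per list by p-value, and the 3 closest profiles per member; SACL2, SCT and SDT were added to show the untested ones. The members and lists were chosen with earlier results of these data known. Alternatives changed the offset, the filter, the scaling, the covariates, the probe sets, the empirical Bayes options and the arrays. After group means were subtracted, the 2 arrays of a number had correlations of 0.83 (number 1), 0.00 (number 2) and 0.68 (number 3). The deviations within a group sum to 0, so these correlations are not independent of each other. Arrays of different numbers were not compared in this way, so the values do not show whether equal numbers mark a pairing. In pad4, numbers 1 and 3 also differ in their stage label. The labels state no model, so the main fit has no block. A replicate block was fitted as an alternative.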

Additional observations from a re-analysis of the deposited data

How the results depend on the processing

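The limits are 3 arrays per group, 1 probe set per gene and signals of SACL1 and SAMDC2 near the filter. SACL1, SAMDC2 and PMEAMT kept their direction and stayed without a call in 19 of 19 alternatives each. Not all of these could have turned the direction. Changing the filter, adding a replicate block, leaving out probe sets open to cross-hybridisation and changing the empirical Bayes options leave the log2 fold change as it was. Stage as a covariate and the stage 5.10 samples alone give 1 and the same value. SAMDC1 turned to 0.045 with quantile normalization, 0.058 both with stage as a covariate and in the stage 5.10 samples alone, and 0.060 without both number 3 arrays, and ran from -0.18 to 0.070 with single arrays left out, where leaving out pad4 replicate 2, pad4 est1b replicate 1 or pad4 est1b replicate 3 gave a positive value (0.023, 0.019 and 0.070). The cause was not tested. With single arrays left out SACL1 ran from 1.03 to 1.69, SAMDC2 from 0.12 to 0.48 and PMEAMT from -1.27 to -0.36. The SAMDC2 minus SAMDC1 difference ran from 0.17 to 0.52. This difference was 0.02 among samples labelled 5.10 and stayed positive in 12 of 12 alternatives, of which the replicate block keeps the main value by design. None of the 4 genes has another probe set of its own, so that alternative gave no value.

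Over all probe sets, the 5 limma calls became 0 without the offset (581 at an unadjusted p under 0.05), 0 when dim probe sets were kept (1156), 0 when stage entered as a covariate (196), 0 for the stage 5.10 samples alone (351) and 0 without probe sets open to cross-hybridisation (543). They became 2 with quantile normalization, 1 with median centring, 19 without both number 3 arrays and 36 when the control ratio of 3' to 5' signal entered as a covariate, and ran from 0 to 9 with single arrays left out. In the fit with a replicate block there were 81, of which 70 were higher and 11 lower, and the adjusted p by limma was 0.12 for SACL1, 0.42 for PMEAMT, 0.57 for SAMDC2 and 0.98 for SAMDC1. The paired sign-flip test of the SAMDC2 minus SAMDC1 difference, also by replicate block, gave an exact p of 0.25, the smallest that 3 pairs allow.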
